A study of Mus musculus with 10 samples.

Results

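The regions described here are places in the mouse liver genome where an XBP-1 immunoprecipitation gave a peak in both libraries from fed mice and in neither library from fasted mice. Peaks of the 4 Fed and Fasted lists were joined wherever they overlapped by at least 1 bp, which gave 112251 merged regions, and 2588 of them (2.31%) met that rule. The regions were therefore chosen by their Fed and Fasted calls, and their difference between those libraries is a description that was not tested. All libraries came from liver of C57BL/6J mice, precipitated with an antibody labelled Xbp-1s. The Fed and Fasted groups were wild-type mice, with 2 libraries each, and the length of the fast is not stated. A second experiment, with 2 libraries each, compared wild-type control mice (WT) with mice carrying a liver-specific knockout of Ern1 (Ern1-LKO). Its labels name neither the Cre driver nor the feeding state, and no label says which libraries came from separate animals. The peak lists hold no readout of the Ern1 deletion itself. The WT and Ern1-LKO lists took no part in choosing the regions. Libraries are named by group and replicate number (Fed 1, Fed 2 and so on).

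XBP-1 drives much of the unfolded protein response, by which cells enlarge their secretory machinery. Ern1 encodes IRE1 alpha, a sensor in the membrane of the endoplasmic reticulum (ER) whose nuclease activity splices Xbp1 mRNA, and the spliced form (Xbp1s) is translated into the active factor. In liver the factor is known for inducing genes of protein folding, secretion and lipid synthesis, and feeding is known to raise Xbp1 splicing. Its binding sites usually contain the core ACGTG, often within a cAMP response element (CRE)-like or ER stress element sequence.

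Of the 2588 regions, 95 had their strongest summit in the 300 bases around a RefSeq gene start (250 bases before to 50 after it, GRCm38.p6, the assembly of mm10), leaving aside predicted genes and 1 chromosome that is not reported here. Sequences of 6 such windows are shown, 5′ to 3′ on the strand of the gene, as examples from among the regions described by their folds further on. Capitals mark ACGTG or its reverse complement.
Brca1: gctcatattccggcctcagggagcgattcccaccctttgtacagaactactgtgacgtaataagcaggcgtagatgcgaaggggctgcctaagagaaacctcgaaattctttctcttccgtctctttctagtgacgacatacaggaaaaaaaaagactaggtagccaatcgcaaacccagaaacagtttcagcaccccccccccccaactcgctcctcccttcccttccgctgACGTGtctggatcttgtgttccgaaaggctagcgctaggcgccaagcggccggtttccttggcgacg
Creb3l3: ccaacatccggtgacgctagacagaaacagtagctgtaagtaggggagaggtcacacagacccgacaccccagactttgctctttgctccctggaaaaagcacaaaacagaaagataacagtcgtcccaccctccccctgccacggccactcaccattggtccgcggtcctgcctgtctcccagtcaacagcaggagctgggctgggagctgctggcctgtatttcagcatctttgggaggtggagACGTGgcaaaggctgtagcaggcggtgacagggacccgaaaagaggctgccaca
Piga: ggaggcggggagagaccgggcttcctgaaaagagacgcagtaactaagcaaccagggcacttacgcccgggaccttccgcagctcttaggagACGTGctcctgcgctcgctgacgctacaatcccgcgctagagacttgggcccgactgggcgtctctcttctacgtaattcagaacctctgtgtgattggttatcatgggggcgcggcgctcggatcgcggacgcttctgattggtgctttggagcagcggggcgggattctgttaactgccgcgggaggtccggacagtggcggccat
Nme1: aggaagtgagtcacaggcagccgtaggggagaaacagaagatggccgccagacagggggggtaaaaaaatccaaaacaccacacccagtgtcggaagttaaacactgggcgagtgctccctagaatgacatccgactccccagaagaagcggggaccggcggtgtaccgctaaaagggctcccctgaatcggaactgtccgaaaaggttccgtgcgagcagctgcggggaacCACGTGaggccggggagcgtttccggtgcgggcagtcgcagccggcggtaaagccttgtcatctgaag
Ppp2r1a: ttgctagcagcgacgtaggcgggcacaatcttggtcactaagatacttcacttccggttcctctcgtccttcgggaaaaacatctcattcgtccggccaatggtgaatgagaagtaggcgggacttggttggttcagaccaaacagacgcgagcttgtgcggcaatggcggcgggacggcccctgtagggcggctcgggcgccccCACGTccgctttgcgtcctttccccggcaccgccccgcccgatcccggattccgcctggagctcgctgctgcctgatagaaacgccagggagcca
Osgin1: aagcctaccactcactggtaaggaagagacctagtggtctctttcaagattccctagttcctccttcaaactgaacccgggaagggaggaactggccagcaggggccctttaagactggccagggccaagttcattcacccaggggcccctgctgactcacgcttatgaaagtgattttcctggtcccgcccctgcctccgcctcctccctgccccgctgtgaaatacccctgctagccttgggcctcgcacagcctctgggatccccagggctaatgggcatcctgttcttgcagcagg
The Brca1 window is chr11:101551906-101552205 on the minus strand, the Creb3l3 window chr10:81092542-81092841 on the minus strand, and the Piga window chrX:164419530-164419829 on the plus strand. The Nme1 window is chr11:93968223-93968522 (minus), the Ppp2r1a window chr17:20945204-20945503 (plus), and the Osgin1 window chr8:119436897-119437196 (plus). In the Creb3l3 window the centre of the ACGTG match lay 1 base from the peak summit, in the Brca1 window 11 bases, in the Ppp2r1a window 32 and in the Nme1 window 58. In the Piga window it lay 115 bases away. The Osgin1 window held no match. Windows at Npepps, Zfp560, Apoe and Nrxn3, whose regions are also described further on, held no match either and are not shown. The 6 windows therefore do not show how common the core was. Nme1 had another RefSeq start whose window also held the summit.

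Over all 21237 windows of protein-coding genes, 100 held a summit of a Fed-only region, and 38 of these (38%, exact 95% interval 28.5 to 48.3) held ACGTG on either strand. The share was 20.9% over all windows, 29.7% over the 1261 windows with a summit of a region called in both Fed libraries and Fasted 1 only, and 35.6% over the 997 windows with a summit called in all 4 libraries. Where a window held the core, the summit lay a median of 34 bases from the nearest match in Fed-only windows, 68 in the windows with both Fed and Fasted 1, and 44 in the windows of all 4. The longer site TGACGTGG, which contains the core, was in 0 of the 100 windows, where 0 of 100 allows a share of up to 3.62% by the exact interval, against 0.706% of all windows and 3.81% of those called in all 4. The ER stress element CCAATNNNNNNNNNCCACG, in which N is any base, was in 0 of the 100, 0.141% of all windows and 1.10% of those called in all 4. TGACGTCA, the palindromic CRE, was in 7 of 100 (7%, 2.86 to 13.9) against 2.24% of all windows, and the E-box CACGTG, which also contains the core, in 16 of 100 (16%, 9.43 to 24.7) against 7.84%. In the windows with both Fed and Fasted 1 the CRE share was 4.52% and the E-box share 14.3%. In the windows called in all 4 they were 2.51% and 17.1%, so the E-box share was not particular to Fed-only windows. GC content averaged 59.9% in the Fed-only windows, 56.2% over all windows and 71.4% in the windows called in all 4. Both strands were searched for every motif, and windows of neighbouring starts can share a summit.

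The Fed-only regions were weak to moderate peaks. Fold enrichment, the authors' ratio of tags at the summit to the local background, had a median of 4.18 in Fed 1 (2.12 to 44.0) and 5.26 in Fed 2 (2.36 to 12.1). Regions called in all 4 libraries had medians of 5.97 and 9.20. Folds of a region are given list by list. Lists differ in depth and input, and folds were compared between lists only to choose the summit of a region. The fold was higher in Fed 2 than in Fed 1 at 2045 of the 2588 regions (79.0%). Within each list, ranked by −log10 q with 0% the strongest, the median rank was 49.3% in Fed 1 and 73.4% in Fed 2, against 11.3% and 16.5% for regions of all 4. Of the 2588 regions, 31 were among the strongest 5% of Fed 1 and 1 among the strongest 5% of Fed 2, and 2 were within the strongest 10% of both. Both −log10 q values reached 5 in 785 regions and 10 in 53. The median width was 360 bp against 768 bp for regions of all 4, and the summits of the 2 Fed lists lay a median of 63 bp apart. Width is the span of the merged peaks, so regions that join peaks of more lists tend to be wider. A wider region also meets a peak of another list more easily.

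**Figure D1:**
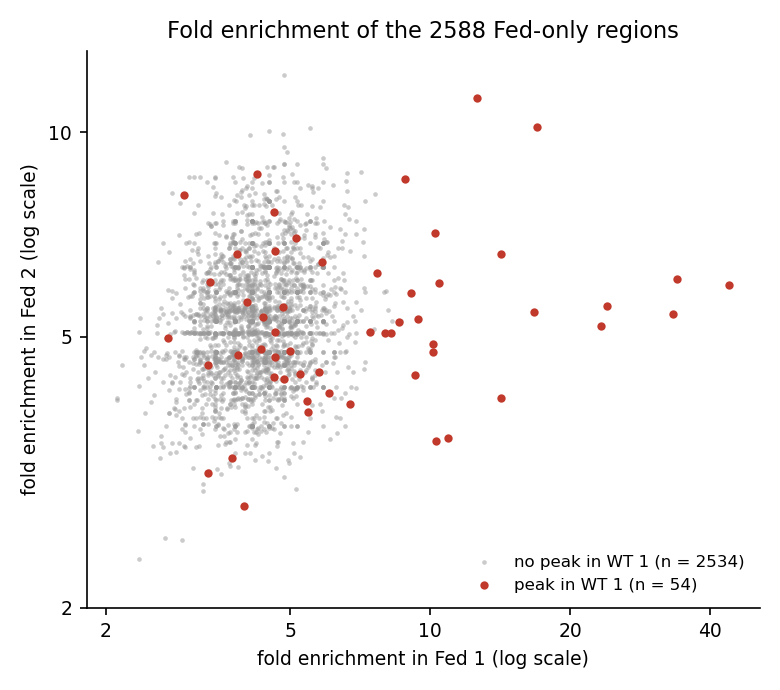
Fold enrichment of each of the 2588 Fed-only regions in Fed 1 (horizontal) and Fed 2 (vertical), both on log axes, with 1 point per region and the 54 regions that also have a peak in WT 1 in red. Most points form 1 cloud around the medians of 4.18 and 5.26, and all 16 regions with a Fed 1 fold over 10 have a WT 1 peak. Among the strongest 5% of Fed 1, 80.3% of the 117 regions called in Fed 1 only (not drawn) also have a WT 1 peak.

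The choice of regions rested mainly on Fasted 1. That list holds 53973 peaks and Fasted 2 holds 19237, and a further 14282 regions called in both Fed libraries were kept out by Fasted 1 alone, against 135 by Fasted 2 alone. Leaving out Fasted 1 raised the number of regions from 2588 to 17071, and leaving out Fasted 2 gave 2724. With only Fed 2 required it was 10490 and with only Fed 1 required 50055. The strongest regions just outside the rule, by the same ranking, lay at Scfd1 and Yif1b, which encode proteins of transport between the ER and the Golgi, and near Vasn. They had Fed 1 folds of 38.7, 27.1 and 39.8 and Fasted 1 folds of 35.4, 17.0 and 23.7, with no Fasted 2 peak. All 3 were stronger in both Fed lists than the first regions inside the rule. Of the 2588 regions, 76 lay within 100 bp of a Fasted peak, 608 (23.5%) within 1 kb, and the median gap was 4741 bp. These gaps are given for no other class of region. In the authors' pooled Fasted list 89 of the 2588 regions (3.44%) had a peak, against 34.8% of all merged regions. The rule keeps that share low, since it removes every region with a peak in a Fasted library.

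The share of Fed-only regions at gene starts was near that of all merged regions and below that of the regions called in both Fed and Fasted 1. A summit was counted at a gene start if it lay within 1 kb of a RefSeq start, or, for the 4392 of 21883 protein-coding genes without a listed start, of either end of the gene. By this measure 393 regions (15.2%, 13.8 to 16.6) were at a gene start, 1342 (51.9%, against 47.8% of all merged regions) inside a gene, 111 (4.29%) at another gene end, 168 (6.49%) outside genes but within 10 kb of a start, and 574 (22.2%) outside and farther away. Of the 393 regions, 291 were nearest to a gene with a listed start, and the others to either end of a gene without one. For the regions of all 4 libraries at gene starts, 4454 of 5492 were nearest to a gene with a listed start. Exons and introns were not told apart. The share at gene starts was 53.0% (52.0 to 54.0) for regions called in all 4 libraries, 43.2% (42.4 to 44.1) for those called in both Fed and Fasted 1, 16.4% for all merged regions and 1.79% for the 672 regions with a peak in both Fasted libraries and no Fed peak. These intervals cover counting error only. The difference from the regions of both Fed and Fasted 1 was also seen at matched strength in Fed 2. In the strongest 25% of that list the shares were 38.2% of 34 regions and 75% of 3468, and in the weakest 25% 10.2% of 1206 and 20.6% of 2628. The difference from the regions of all 4 libraries was large only in the strongest 25%, at 38.2% against 69.5%. In the following 25% steps the Fed-only and all-4 shares were 24.3% and 25.5%, 16.7% and 14.4%, and 10.2% and 10.7%. The Fed-only share depended on Fasted 1, being 39.3% without it, and was 7.54% without Fed 1, 8.65% without Fed 2 and 31.6% with a 5 kb window.

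**Figure D2:**
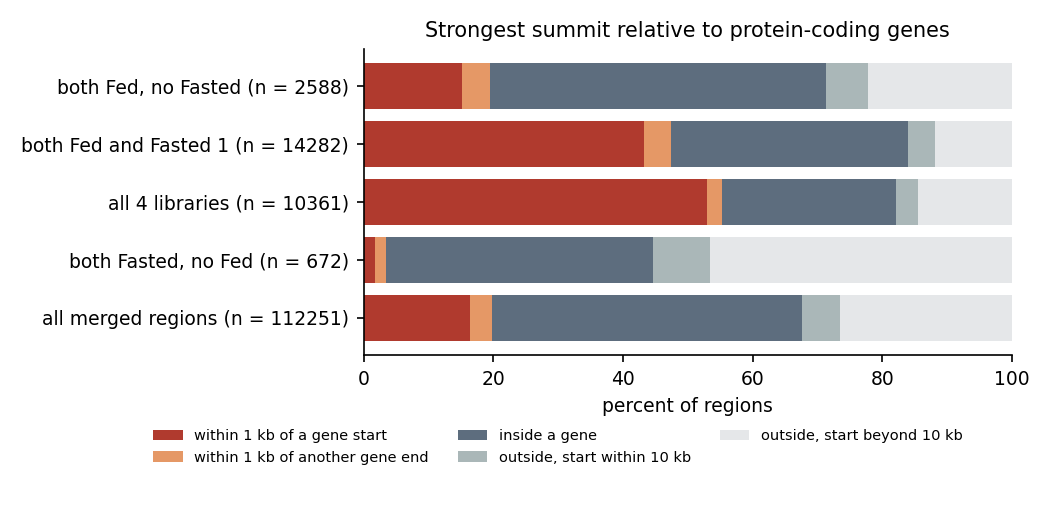
Position of the strongest summit relative to protein-coding genes, as a percentage of the regions in each class, with 1 bar per class. Gene starts take 15.2% of Fed-only regions, 43.2% of those in both Fed and Fasted 1 and 53.0% of those in all 4 libraries.

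Most Fed-only regions had no peak in the second experiment, and the same held for all merged regions. A peak was present at 54 regions (2.09%, 1.57 to 2.71) in WT 1, at 546 (21.1%, 19.5 to 22.7) in WT 2, at 3 (0.116%, 0.0239 to 0.338) in Ern1-LKO 1 and at 415 (16.04%, 14.6 to 17.5) in Ern1-LKO 2. Over all merged regions the shares were 2.71%, 22.8%, 0.584% and 21.7%. All 4 Fed-only shares were thus under those of all merged regions, in proportion least so in WT 2 and most so in Ern1-LKO 1. Of the regions called in all 4 Fed and Fasted libraries, 16.1%, 79.8%, 5.94% and 82.9% had a peak in the same lists. None of the 4 lists had a peak at 1842 Fed-only regions (71.2%, against 71.3% of all merged regions). The libraries of each group differed more than the groups, since WT 1 and WT 2 hold 6258 and 30327 peaks, and Ern1-LKO 1 and Ern1-LKO 2 hold 698 and 30796. Kept tags, in the same order, numbered 14.07M, 9.18M, 12.0M and 4.34M (M, 1000000 tags). The share averaged 11.6% ± 13.4 (SD, n = 2) over the WT libraries against 8.08% ± 11.3 (SD, n = 2) over Ern1-LKO, a difference of 3.52 percentage points (two-sided exact permutation p = 0.67, where 2 libraries against 2 cannot give less than 0.33). The difference was −5.99 points without WT 2 and −4.44 without Ern1-LKO 1, so it did not hold its direction when a library was left out. With no statement of separate animals, this p measures only the spread between these libraries, which may be technical.

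**Figure D3:**
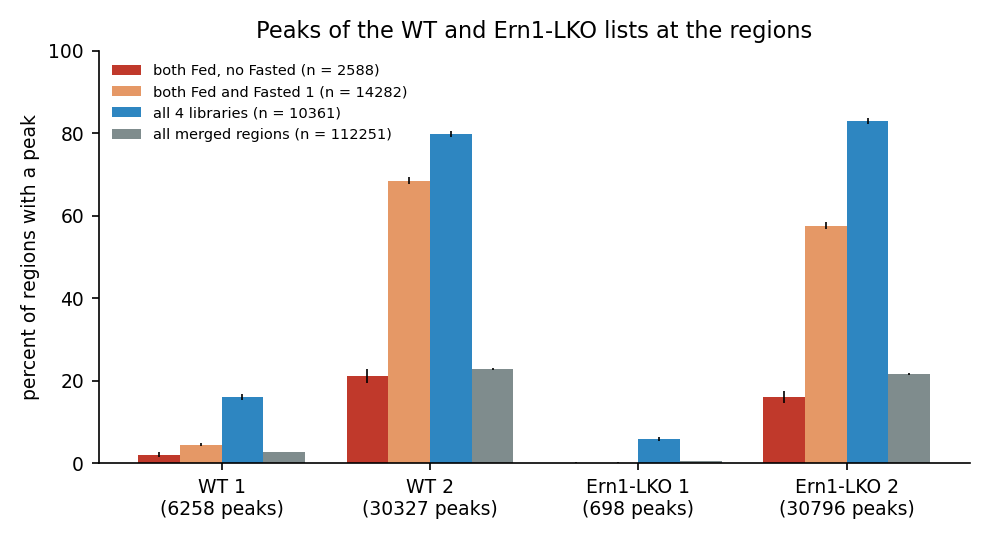
Percentage of regions with a peak in each of the 4 WT and Ern1-LKO lists, for 4 classes of region, with exact 95% intervals as error bars and the length of each list under its name. Fed-only regions stand slightly below all merged regions in WT 2 and far below the regions of all 4 libraries in WT 2 and Ern1-LKO 2.

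WT 2 and Ern1-LKO 2, the lists of nearly equal length, allow the closest look. A peak was present in both at 233 Fed-only regions (9.003%), in WT 2 alone of these lists at 313 (12.1%, 10.9 to 13.4) and in Ern1-LKO 2 alone at 182 (7.03%, 6.08 to 8.09). Over all merged regions, 6.49% were in WT 2 and not Ern1-LKO 2, and 5.39% were in Ern1-LKO 2 and not WT 2. For the regions of both Fed and Fasted 1 these shares were 18.2% and 7.27%. Presence followed strength in Fed 2. Over successive 25% steps of the Fed 2 list, from the strongest to the weakest, 58.8%, 33.3%, 23.7% and 13.8% of Fed-only regions had a WT 2 peak and 26.5%, 22.9%, 17.4% and 12.4% an Ern1-LKO 2 peak. At the same steps the regions of both Fed and Fasted 1 had 94.6%, 74.1%, 54.9% and 43.2% for WT 2, with 84.4%, 61.6%, 43.7% and 34.6% for Ern1-LKO 2. Presence also differed by location, with a WT 2 peak at 36.9% and an Ern1-LKO 2 peak at 20.6% of the 393 regions at gene starts, but 16.8% and 13.4% of those inside genes, and 19.9% and 19.7% of those over 10 kb from a start. With 1 library each, these shares compare libraries and not genotypes.

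**Figure D4:**
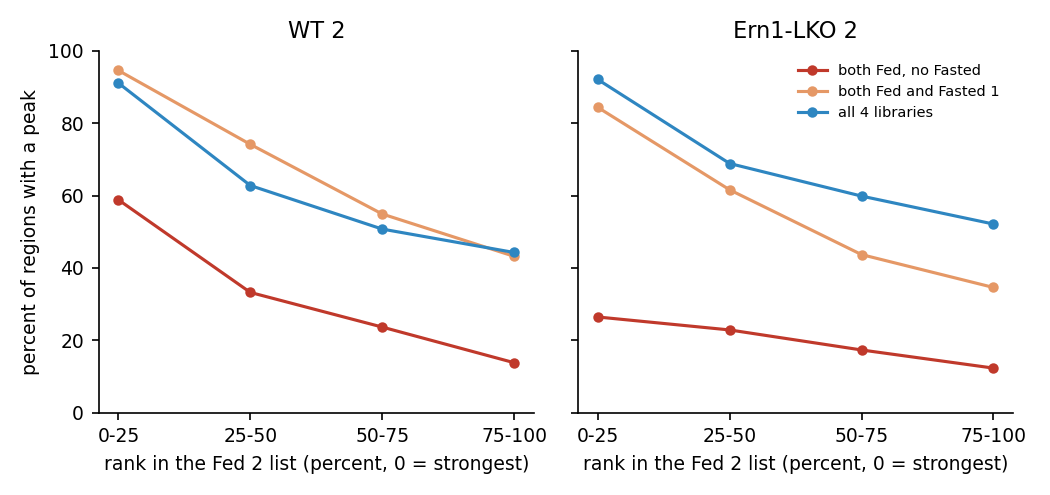
Percentage of regions with a peak in WT 2 (left) and Ern1-LKO 2 (right), in 25% steps of the Fed 2 list from the strongest to the weakest, with 1 line per class. At every step the Fed-only regions lie below the regions of both Fed and Fasted 1, for example 58.8% against 94.6% in WT 2 at the strongest.

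The 31 Fed-only regions among the strongest 5% of Fed 1 had another pattern. WT 1 had a peak at 24 of them (77.4%, 58.9 to 90.4) and WT 2 at 22 (71.0%, 52.0 to 85.8), whereas Ern1-LKO 1 had a peak at 3 (9.68%, 2.04 to 25.8) and Ern1-LKO 2 at 2 (6.45%, 0.791 to 21.4). At the same rank in Fed 1, the 1095 regions of both Fed and Fasted 1 had a peak in 36.3%, 98.2%, 1.64% and 82.4% of cases in the same order of lists. The 117 regions called in Fed 1 only had 80.3%, 26.5%, 7.69% and 2.56%. The high share in WT 1 was thus also found in regions that Fed 2 lacked. The median fold of the 31 regions in Fed 2 was 5.31, close to 5.26 for all Fed-only regions. The first of the 31 by −log10 q in Fed 1 lay at chr13:12541822-12542711 (all coordinates mm10), 21750 bp from the start of Edaradd. It had folds of 33.3 in Fed 1, 5.41 in Fed 2, 13.7 in WT 1, 9.53 in WT 2 and 7.56 in Ern1-LKO 1, no Ern1-LKO 2 peak, and a peak in the pooled Fasted list. The highest Fed 1 fold was at chr8:34152122-34152856, 2027 bp from Saraf, a regulator of calcium entry at the ER. This region had folds of 44.0 in Fed 1, 5.97 in Fed 2, 7.81 in WT 1 and 9.71 in WT 2, with no Ern1-LKO peak. The region at chr2:169351536-169352095, 280734 bp from the nearest gene start, had folds of 33.9, 6.07 and 21.5 in Fed 1, Fed 2 and WT 1, no WT 2 peak, and 8.96 in Ern1-LKO 1. A region 5573 bp from Ostc, which encodes a subunit of the oligosaccharyltransferase complex, had folds of 14.2 and 4.06 in Fed 1 and Fed 2 and of 27.0 and 7.19 in WT 1 and WT 2.

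**Figure D5:**
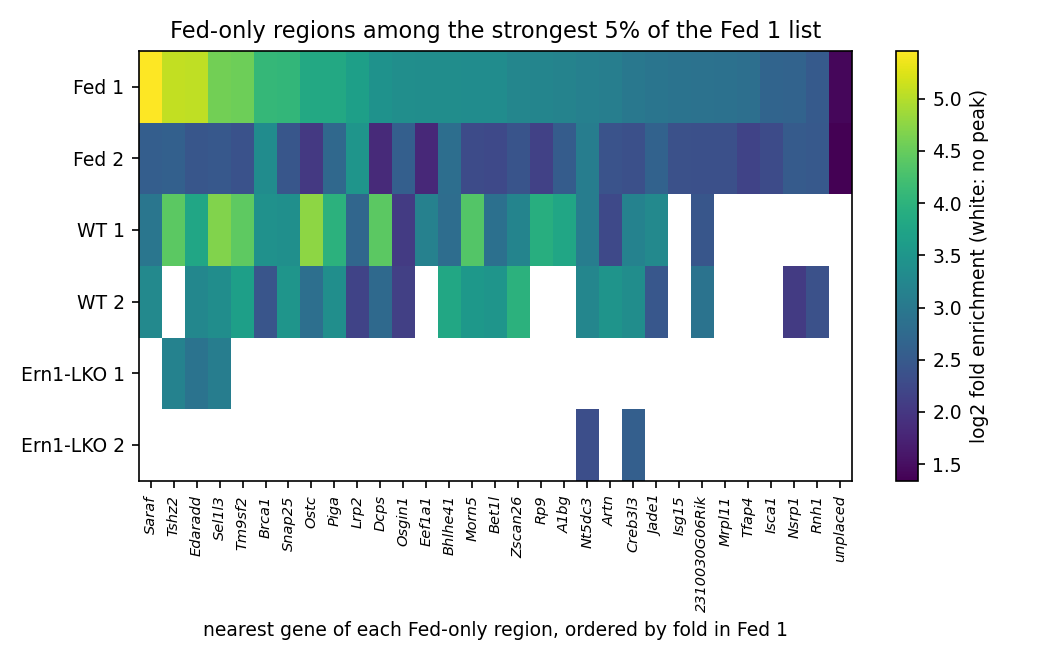
Fold enrichment, as log2 colour, of the 31 Fed-only regions among the strongest 5% of the Fed 1 list (columns, named by nearest gene, 1 on an unplaced sequence) in 6 lists (rows), with white for no peak. The WT rows are filled at 24 and 22 of the 31 regions and the Ern1-LKO rows at 3 and 2.

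Peaks of both WT libraries without an Ern1-LKO peak were present at 26 Fed-only regions (1.005%, 0.657 to 1.47), against 0.714% (0.583 to 0.866) of the regions of both Fed and Fasted 1 and 0.179% of all merged regions. The interval of the Fed-only regions overlapped that of the regions of both Fed and Fasted 1. Both WT lists had a peak at 36 Fed-only regions (1.39%, background 2.17%), so 26 of 36 (72.2%, 54.8 to 85.8) lacked an Ern1-LKO peak. The same share was 102 of 635 (16.1%, 13.3 to 19.2) for regions of both Fed and Fasted 1 and 3 of 1667 for regions of all 4. It was not particular to the Fed-only regions. Among the strongest 5% of Fed 1 it was 16 of 20 for them and 20 of 25 for the regions called in Fed 1 only. Of the 26 regions, 16 were among the strongest 5% of Fed 1, 0 among the strongest 5% of Fed 2, and 10 lay at a gene start. No Fed-only region had a peak in both WT and both Ern1-LKO libraries. That pattern was rare elsewhere too, at 0.381% of all merged regions and 0.098% of the regions of both Fed and Fasted 1. It requires a peak in Ern1-LKO 1, which had one at only 3 Fed-only regions. The class of both WT and neither Ern1-LKO was looked at after the lists had been seen. Its count was 80 without Fed 2, 131 without Fasted 1, 311 without WT 1 and 43 without WT 2. With equal numbers of top WT and Ern1-LKO peaks it was 0, because each list was then held to the 698 peaks of the shortest.

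The first of these 26 regions by strength in both Fed lists lay between Brca1, a gene of DNA double-strand break repair, and Nbr1, which encodes an autophagy receptor. The region, chr11:101551685-101552530, had its summit 4 bp upstream of the Brca1 start and 148 bp upstream of the Nbr1 start on the other strand, and a peak list cannot say to which gene it belongs. Its folds were 17.0 in Fed 1 and 10.2 in Fed 2, and the nearest Fasted peak was 24075 bp away. In the second experiment it had folds of 10.8 in WT 1 and 5.38 in WT 2. The next by that order was a region inside Gse1 at chr8:120368918-120369462, with folds of 4.23, 8.67, 4.86 and 10.8 in Fed 1, Fed 2, WT 1 and WT 2. Its nearest Fasted peak was 804 bp away. A region 27459 bp upstream of Lrp2, the gene for the endocytic receptor megalin, had folds of 12.6, 11.2, 6.47 and 4.50 in the same order. Near Bhlhe41, a repressor of the circadian clock, folds were 10.2, 7.11, 7.03 and 14.0, and inside Zc3h12d they were 4.62, 6.68, 3.93 and 5.54. All 5 had a peak in every Fed and WT library, and none of the 5 had one in an Ern1-LKO library. A region 60269 bp from the nearer end of Ccn2, a matricellular protein gene without a listed start, was also among the 26. It had folds of 5.85, 6.44, 5.44 and 8.73 in Fed 1, Fed 2, WT 1 and WT 2.

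Others of the 26 lay at gene starts. Piga, which encodes an enzyme of the first step of glycosylphosphatidylinositol anchor synthesis in the ER, had a region 41 bp upstream of its start with folds of 14.2 and 6.63 in Fed 1 and Fed 2 and 15.9 and 10.4 in WT 1 and WT 2. At Dcps, a scavenger enzyme of mRNA caps, the folds were 10.9, 3.55, 21.5 and 6.75. Folds at Bet1l, a Golgi SNARE, were 10.1, 4.75, 7.29 and 11.2, at Osgin1, an oxidative stress-responsive gene, 10.4, 6.01, 4.15 and 4.33, and at Nme1, a nucleoside diphosphate kinase, 5.25, 4.41, 3.46 and 3.66. The nearest Fasted peaks were 37345 bp from the Piga region and 456 bp from the Bet1l region, so that absence from the Fasted lists covers both isolated regions and regions beside a Fasted peak. These 5 genes were named after their values had been seen.

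Of the 36 regions in both WT lists, 8 had a peak in Ern1-LKO 2 and 2 in Ern1-LKO 1. Creb3l3 encodes CREBH, a liver factor held in the ER membrane and released by cleavage, which controls lipid genes. A region with its summit 1 bp from the Creb3l3 start had folds of 7.98 in Fed 1, 5.06 in Fed 2, 8.99 in WT 1, 10.2 in WT 2 and 6.03 in Ern1-LKO 2, and a Fasted peak lay 306 bp away. Ppp2r1a, the scaffold subunit of protein phosphatase 2A, had a region 11 bp upstream of its start with folds of 3.84, 6.61, 6.15, 10.8 and 4.76 in the same lists. At Nt5dc3 the folds were 8.83, 8.54, 8.45, 9.41 and 5.04, which made it the first of all 2588 regions by strength in both Fed lists, and a Fasted peak lay 168 bp away. A region 18573 bp upstream of Fos, an immediate early gene, had folds of 4.61, 7.63, 3.46, 6.75 and 3.58. One inside Sel1l3, a gene without a listed start, lay 16811 bp from its nearer end. That region had folds of 24.0, 5.55, 25.6 and 10.2 in the Fed and WT lists, with 8.45 in Ern1-LKO 1 and no Ern1-LKO 2 peak.

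Among the first 15 regions by strength, others lay at or near genes of varied function. A region at Npepps, a cytosolic aminopeptidase, 213 bp upstream of the start, had folds of 5.86 in Fed 1, 9.17 in Fed 2, 9.37 in WT 2 and 17.1 in Ern1-LKO 2. Regions in Chd2, a chromatin remodeller, and at Traf3ip2, an adaptor of interleukin 17 signalling, had folds of 5.74 and 8.29, and of 6.18 and 8.36, in Fed 1 and Fed 2. Both had a WT 2 peak, with folds of 6.12 and 6.46, and no other peak in the second experiment. One in Mnt, a repressor of the MYC network, had folds of 4.22 in Fed 1, 7.37 in Fed 2 and 4.15 in WT 2. One near Adm, the adrenomedullin gene, had 3.96 and 8.56, with 5.09 in WT 2 and 5.43 in Ern1-LKO 2. Regions at or near Hjurp, a centromere histone chaperone, Ccdc150, Atg14, an autophagy initiation factor, Zfp560 and Zscan12 had Fed 2 folds of 6.02 to 10.1 and no WT or Ern1-LKO peak.

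The 393 regions at gene starts reached 424 genes (1.94% of 21883), since 38 regions lay at the starts of 2 or more genes. A Fasted peak lay elsewhere within 1 kb of the start for 201 of these genes (47.4%, against 59.5% of all genes), and 72 (17.0%, against 26.1%) also had a region called in all 4 libraries there. Over the 424 genes, the start carried a peak in WT 1 for 12.3%, in WT 2 for 61.8%, in Ern1-LKO 1 for 1.89% and in Ern1-LKO 2 for 45.5%, against 11.6%, 53.2%, 2.77% and 48.4% of all genes. The 223 genes outside those 201 had no Fasted peak in the window. Of those 223 genes, the start carried a peak in WT 2 for 85 (38.1%), in Ern1-LKO 2 for 38 (17.0%), in WT 1 for 20 (8.97%) and in Ern1-LKO 1 for 0. Over all 8864 genes with no Fasted peak at a start, which include genes with no Fed peak either, the shares were 3.53%, 2.28%, 1.87% and 0.0226%. The gene count followed the libraries required, with 826 without Fed 1, 3929 without Fed 2 and 6790 without Fasted 1.

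Across 29 gene lists chosen for liver, 15 of 566 genes (2.65%) had a Fed-only region at a start, near the 1.94% of all genes. None of the 92 genes on the lists for ER protein folding, ER-associated degradation, the translocon and ER-to-Golgi transport, the textbook targets of XBP-1, was among them. Among other genes of the unfolded protein response, Creb3l3 was 1 of 20. In lipoprotein assembly 2 of 14 genes had such a region. They were Apoe, with folds of 3.93 and 4.21 in Fed, 7.71 in WT 2 and 8.94 in Ern1-LKO 2, and the HDL receptor gene Scarb1, with 3.28 and 5.47 and no peak in the second experiment. In DNA repair, 2 of 20 had one, Brca1 and Ercc1, the latter with folds of 4.49 and 4.11. Nbr1 was 1 of 20 in autophagy, and Psma1, a proteasome subunit, 1 of 22, with folds of 4.88 and 5.87 in Fed and 8.19 in WT 2. The gluconeogenesis list held Sds, serine dehydratase, with folds of 4.88 and 5.85 in Fed and 8.77 in Ern1-LKO 2. Sds, Scarb1 and Hdac3 have no listed start, so either end of these genes was counted. The Sds region was also counted at Plbd2. The insulin signalling list held the kinase gene Akt2, with 3.78 and 6.52, and fatty acid oxidation held Acadvl, with 3.47 and 3.20. Other list genes with one included Hdac3 (4.79 and 3.97), Lcn2 (3.03 and 3.95) and the neuronal genes Nrxn3 (4.70 and 5.05) and Nlgn1 (2.78 and 3.49), given as Fed 1 and Fed 2 folds. No start on the lists of 19 hepatocyte, 15 Kupffer cell, 15 endothelial, 15 stellate cell, 14 lymphocyte or 20 muscle genes carried one. Of 10 cholangiocyte marker genes, 1 did. With 1.94% of all genes having a Fed-only region at a start, these counts do not set such short lists apart. The cell types behind the signal were not tested.

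Counted over the gene body and 10 kb on each side, 2548 genes (11.6%) had a Fed-only region. This measure grows with gene length. Lipogenesis had 7 of 23 genes (30.4%), namely Srebf1, Fasn, Mlxipl, Scap, Lpin2, Dgat2 and Fads2, and its median gene length was 38.7 kb against 17.2 kb over all genes. Srebf1 and Mlxipl encode the insulin- and glucose-responsive factors SREBP-1 and ChREBP, Scap the escort protein of SREBP, and Fasn fatty acid synthase. Inside Mlxipl the folds were 4.19 and 6.15 in Fed, 8.60 in WT 2 and 7.64 in Ern1-LKO 2, and this region was also in the pooled Fasted list. Inside Fasn they were 4.45 and 4.73, with no peak in the second experiment. Each of these 7 genes also had a Fasted peak at its start. Other unfolded protein response genes had 6 of 20 (30%), namely Atf6, Creb3l3, Eif2ak3, Mbtps1, Ppp1r15a and Sesn2. The median length of that whole list was 11.6 kb, but these 6 genes were 164, 14.5, 60.8, 50.7, 3.35 and 17.7 kb long, in that order. Liver endothelial markers had 4 of 15 (26.7%), namely Eng, Flt1, Gpr182 and Stab1, on a list with a median length of 29.6 kb. Of their regions 1, at Eng, had a peak in the second experiment (WT 2). Nuclear receptors and coregulators had 5 of 20 (25%), with a median length of 97.9 kb. Cholesterol synthesis and uptake had 0 of 20, and ER protein folding had 1 of 20 (5%), Sil1. Of 18 clock genes 3 had a region, Arntl, Per1 and Hlf, and those at Hlf lay 1149 and 3103 bp from its start with folds of 5.01 and 6.66, and 3.78 and 5.61, in Fed 1 and Fed 2.

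The regions were spread over the genome. Of the 2588, 306 (11.8%) had another within 10 kb, and 22 genes had 4 or more in the gene or its 10 kb flanks. Gse1 had 8, in a gene 353 kb long with 192 merged regions in all, and Nfix had 6 of 59 merged regions. Chromosome X held 22 (0.850%), against 1.10% of all merged regions and 6.25% of those with a peak in both Fasted libraries and no Fed peak.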

How the data were processed

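Chromatin precipitated with an XBP-1 antibody from mouse liver was sequenced in 8 libraries, 2 each from Fed, Fasted, WT and Ern1-LKO mice, beside 2 inputs. The authors deposited 12 peak lists, 1 per library and 1 per pooled group. The submitters' processing notes list the build mm10 and the tools MACS2 2.2.1, Bowtie2 2.2.5, FastQC 0.11.3 and bcl2fastq. The headers of the lists instead give MACS 2.1.1.20160309, with a q cutoff of 0.05 and 1 tag kept per position. Per the file headers, the Fed and Fasted lists share an input of 39.67M kept tags (M, 1000000 tags), and the WT and Ern1-LKO lists another of 16.51M, so the experiments are separate batches and calls were compared only as presence. Kept tags were 17.4M and 7.77M in Fed and 8.38M and 9.62M in Fasted. Each list gives the authors' pileup signal, fold enrichment (a ratio), −log10 p-value and −log10 q-value. These were used only within a list, except that fold also chose the summit of each region.

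Peaks were merged with Python 3.11.15, pandas 2.3.3 and SciPy 1.17.1. The peak with the highest fold in any of the merged lists gave the summit of a region. For regions with a Fasted peak this could be a Fasted summit. Intervals are exact (Clopper-Pearson) and, like the limit from a count of 0, cover counting error only. Regions were named by the weaker of their ranks in the Fed lists: the first 15, the first 10 also in both WT lists, the first 5 in both WT and neither Ern1-LKO list, and genes of 29 lists with a region at a start. Predicted genes were passed over. The regions, lists and rules were chosen with earlier results of these data known. Gene starts came from the RefSeq promoter table, with starts for 17491 of 21883 genes, and 566 of 567 list genes matched. Replicate numbers were not taken as pairs. On simulated lists, 103 of 103 planted Fed-only regions and 500 of 500 gene-start peaks were recovered. The planted regions lay far apart and overlapped fully between lists. This checked only that the merging and assignment steps ran as written, and not how they treat neighbouring peaks of the real lists. No reads, coverage or genome sequence beyond the promoter windows were used here. Some genes counted in the lists are not reported here by name.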

Additional observations from a re-analysis of the deposited data

How the results depend on the processing

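The number of Fed-only regions was 2407 with an overlap of 50% of the shorter peak. It was 1214 with a −log10 q of at least 5, 654 with a fold of at least 5, 910 with equal numbers of top Fed and Fasted peaks, and 49905 from the pooled lists. Leaving out 1 Fed or Fasted library gave 2724 to 50055. The share at gene starts was 24.96%, 24.2%, 51.5% and 10.4% under the same 4 settings, 31.6% with a 5 kb window, and 7.54% to 39.3% with a library left out. The number of genes with a region at a start was 174 with a fold of at least 5, 4659 from the pooled lists, 927 with a 5 kb window, and 430 to 6790 with a library left out, against 332 to 521 under the other settings. The difference in presence between WT and Ern1-LKO stayed positive under the settings that keep all libraries (0.251 to 17.3 percentage points), with no exact permutation p under 0.33. With a library left out it ranged from −5.99 to 13.0 points, negative without WT 2 (−5.99) and without Ern1-LKO 1 (−4.44). With the replicate number as a block it was 3.52 points (exact sign-flip p = 0.5, the smallest possible with 2 pairs). Regions with a peak in both WT lists and no Ern1-LKO peak, for which every setting was chosen after seeing the data, numbered 14 with a fold of at least 5, 116 from the pooled Fed and Fasted lists, 83 from the pooled WT and Ern1-LKO lists, and 0 with equal numbers of top WT and Ern1-LKO peaks. With a library left out they numbered 26 to 311. Equal numbers of top peaks, and leaving out a library, change how many peaks a region must have or lack. List length did not follow depth, since Ern1-LKO 1, with 12.0M kept tags, holds 698 peaks and Ern1-LKO 2, with 4.34M, holds 30796, and a missing peak does not show that binding was absent.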

Other observations

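Of the Fed-only regions, Actr10, a dynactin subunit gene, had the highest WT 2 fold among the 36 in both WT lists, 17.98, and an Ern1-LKO 2 fold of 21.9, with Fed folds of 3.75 and 3.32. Myc has no listed start, and its region lay 177 bp outside the nearer end of the gene. The folds there were 4.64 and 4.68 in Fed and 5.40 and 5.71 in WT, with no Ern1-LKO peak, and the nearest Fasted peak was 140 bp away. At Kdm5c on chromosome X the folds were 2.95 and 8.09 in Fed and 5.24 and 8.45 in WT, and this region was in the pooled Fasted list. These genes were named after their values had been seen.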
